A study of Mus musculus with 6 samples.

Results

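The vascular connexins are the 7 genes *Gja1*, *Gja4*, *Gja5*, *Gjb1*, *Gjb2*, *Gjc1*, and *Gjc3*, chosen by their symbols from the 23997 genes that the deposited table lists. Their transcripts were measured by bulk RNA-Seq of the ductus arteriosus (DA), the fetal vessel between the pulmonary artery and the aorta, at E17.5, late in gestation. The 6 libraries came from untreated C57BL/6 mice, of which 3 were wild type (WT) and 3 had the genotype written as Prdm6f/f; SM22-Cre, called KO here. In the KO mice both alleles of *Prdm6*, a gene of the PRDM family of transcriptional regulators, are floxed, and Cre is driven by the promoter of SM22 (*Tagln*), a gene of smooth muscle cells (SMCs). Cells of the vessel that never express *Tagln* keep *Prdm6*, and SM22-Cre lines are also known to act for a time in embryonic heart muscle. The WT mice were littermates, and whether they carried Cre is not given in the sources used here.

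Connexins are membrane proteins that assemble into hemichannels, and the docking of the hemichannels of neighbouring cells makes a gap junction, through which ions, calcium signals, and small metabolites pass. In arteries, connexin 43 (*Gja1*) and connexin 45 (*Gjc1*) are known from SMCs, whose contraction they couple. Connexin 37 (*Gja4*) and connexin 40 (*Gja5*) are known from arterial endothelium, and *Gja5* also from atrial and conducting heart muscle. Connexin 32 (*Gjb1*) and connexin 29 (*Gjc3*) belong to myelinating glia, and connexin 26 (*Gjb2*) belongs to epithelia.

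Of the 7 genes, 4 were abundant in the DA, all at 17.8 FPKM or more in every library, while *Gjc3* was low and *Gjb1* and *Gjb2* were at or near 0. No connexin passed the test of KO against WT. *Gja4* came nearest, with a mean of 49.0 FPKM in KO and 20.2 FPKM in WT. *Gja4* and *Gja5* were higher in every KO library than in every WT library, and *Gjc1* was lower in every KO library. FPKM is the number of fragments mapped to a gene, scaled to transcript length and to the mapped fragments of the library, so that levels of different genes can be compared within a library.

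Directions are given as the libraries are labelled. The level of *Prdm6*, at 41.7, 48.4, and 19.8 FPKM in WT 0, 1, and 2 and at 48.6, 27.1, and 15.4 FPKM in KO 0, 1, and 2, overlapped between the groups and does not check the labels, since which of its exons are floxed is not given in the sources used here. FPKM values hold no read totals. The size of 1 read in low values put the depth of the libraries within 0.94 to 1.21 of that of WT 1. This is a rough estimate from 69 to 129 low genes in a library, and the total depth is unknown. Between 8338 and 11886 genes were listed at 0 in a library, and of the 3506 genes with a mean of at least 20 FPKM, 34 to 61 were listed at 0 in a library, so a 0 can be a failed estimate. Markers of SMCs were present in all libraries, with the summed level of 12 of them between 2875 and 6144 FPKM in WT and between 1118 and 2703 FPKM in KO. WT 1 and KO 2 stood apart in heart muscle transcripts, with summed levels of 1111 and 1190 FPKM over 10 genes against 58.2 to 511 FPKM in the other libraries. KO 0 held both *Xist* at 81.0 FPKM, which is transcribed in female cells, and the Y-linked *Ddx3y* at 26.4 FPKM, whereas the other libraries held 1 of the 2 at 20.1 FPKM or more and the other at 0.383 FPKM or less. Nothing in the labels says whether a library was made from 1 embryo or several, so the p values below measure the spread between these libraries.

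In GRCm38, the assembly of mm10, *Gja1* lies at chr10:56377330-56402513, *Gja4* at chr4:127311421-127314039, *Gja5* at chr3:96904693-97077416, *Gjb1* at chrX:101376378-101385629, *Gjb2* at chr14:57098600-57104702, *Gjc1* at chr11:102799579-102819700, and *Gjc3* at chr5:137953461-137963098. *Gja1*, *Gja5*, and *Gjb1* are on the plus strand and the others on the minus strand. The coding sequence lies within 1 exon in every annotated coding transcript of *Gja1*, *Gja4*, *Gjb1*, *Gjb2*, and *Gjc1*, and in 2 of 3 of *Gja5*, while that of *Gjc3* is spread over more than 1 of its 3 exons. The span of *Gja5* overlaps genes on the other strand, among them *Gpr89* and a pair of antisense genes. Whether fragments were assigned by strand is not given in the sources used here, so reads of *Gja5* and of these genes might not be told apart.

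The promoters of the 2 endothelial connexins, whose values were higher in every KO library, are shown with that of *Gja1*, whose values overlapped between the groups. Each is the stretch of 250 bases that ends just before the gene's RefSeq start in GRCm38.p6, written 5′ to 3′ on the strand of the gene. They cover chr10:56377050-56377299 for *Gja1*, chr4:127314040-127314289 for *Gja4*, and chr3:97032152-97032401 for *Gja5*, whose RefSeq start is that of a shorter transcript. Capitals mark matches, on either strand, to motifs of factors known to act on connexin genes.
Gja1: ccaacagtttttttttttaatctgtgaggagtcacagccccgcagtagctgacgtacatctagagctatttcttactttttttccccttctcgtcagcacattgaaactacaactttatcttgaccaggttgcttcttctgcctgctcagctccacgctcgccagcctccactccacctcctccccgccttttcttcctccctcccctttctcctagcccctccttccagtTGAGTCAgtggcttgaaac
Gja4: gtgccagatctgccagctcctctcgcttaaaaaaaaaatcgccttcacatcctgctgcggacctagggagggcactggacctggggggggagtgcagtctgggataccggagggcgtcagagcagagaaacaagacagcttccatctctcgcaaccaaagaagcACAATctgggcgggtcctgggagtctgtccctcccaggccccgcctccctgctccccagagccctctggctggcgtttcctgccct
Gja5: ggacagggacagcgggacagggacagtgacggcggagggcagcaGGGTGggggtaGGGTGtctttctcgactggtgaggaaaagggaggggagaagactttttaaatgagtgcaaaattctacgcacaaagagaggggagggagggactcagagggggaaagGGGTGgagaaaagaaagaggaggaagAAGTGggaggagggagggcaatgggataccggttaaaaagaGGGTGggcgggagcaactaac

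The motifs searched were AP-1 (TGANTCA), Sp1 or KLF (CACCC), ETS (CCGGAA), SOX (ACAAT), T-box (AGGTGT), NKX2-5 (CACTT), the TATA box (TATAAA), and the CArG box. Only CACCC was searched for Sp1 or KLF, so sites of these factors with another sequence are not marked. The promoter of *Gja1* held 1 AP-1 match that begins 19 bases before the start, a motif found in 6.75% of 32851 mouse promoters of this length. The promoter of *Gja4* held 1 SOX match that begins 86 bases before the start, a motif found in 27.7% of promoters. The promoter of *Gja5* held 4 matches to CACCC, all on the opposite strand and so written GGGTG, and 1 to CACTT, written AAGTG, motifs found in 52.0% and 40.7% of promoters. None of these 7 matches overlaps another. The ETS motif, the T-box, the TATA box, and the CArG box, which 12.0%, 11.8%, 12.4%, and 1.47% of promoters hold, were not in these 3 windows. The GC content was 50% for *Gja1*, 61.2% for *Gja4*, and 56.4% for *Gja5*, against a median of 52.4% over all promoters. *Gjb1*, *Gjb2*, and *Gjc3* also had a promoter in the table and *Gjc1* did not.

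The groups were compared with limma on log2(FPKM + 0.1) over the 12955 genes with a mean of at least 1 FPKM, with Benjamini-Hochberg adjustment over all of them. Fold changes are on this scale, KO minus WT, and understate the change of low genes. Of the 5 connexins that passed the filter, 0 had an adjusted p under 0.05, where 1 gene of all those tested did (0.00772%), and 1 had an unadjusted p under 0.05, *Gja4*, which was higher in KO. Over all genes tested, 3.31% were higher and 4.97% lower at an unadjusted p under 0.05. Of the 5, 2 were higher and 1 was lower in KO without overlap between the groups, where 8.21% of all genes were higher and 7.84% lower in that way. The median log2 fold change was 0.48 over the 5 connexins and 0.072 over all genes tested, of which 7207 had a positive and 5748 a negative value. These figures over all genes stand beside the counts of the gene lists below as well. With 3 libraries against 3, the two-sided exact permutation test of a single gene cannot give a p under 0.1.

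**Figure D1:**
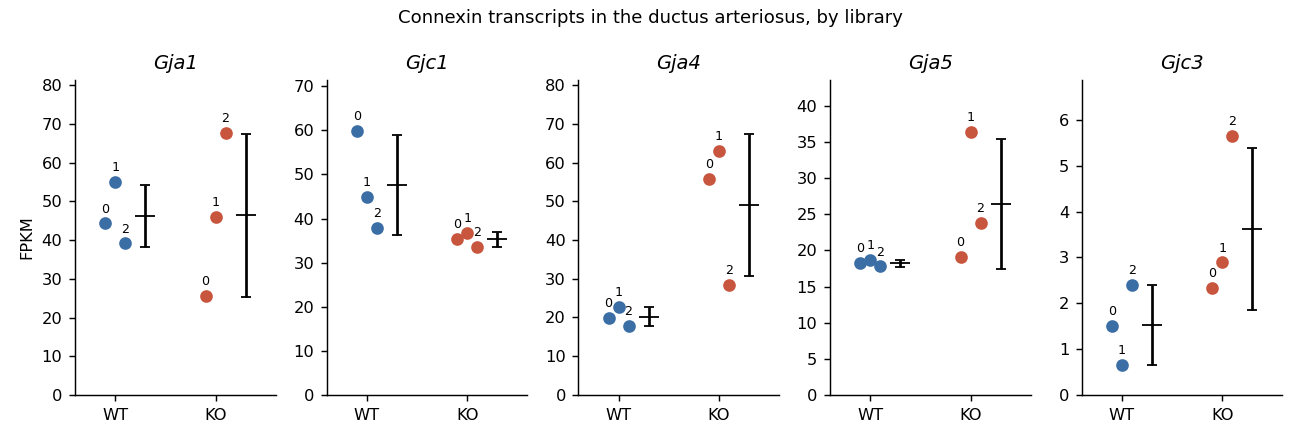
FPKM of the 5 connexins with a mean of at least 1 FPKM in each WT (blue) and KO (red) library, with the library number above each point and the mean and SD of the 3 libraries as a bar beside them. *Gja4* and *Gja5* lie higher in every KO library, *Gjc1* lies lower, and *Gja1* and *Gjc3* overlap between the groups.

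*Gja4*, the endothelial connexin 37, was at 19.9, 22.8, and 17.9 FPKM in WT 0, 1, and 2 and at 55.8, 63.0, and 28.4 FPKM in KO 0, 1, and 2. The WT values lay close together, KO 0 and KO 1 lay well above them, and KO 2 lay only a little above the highest WT library. The means were 20.2 ± 2.46 (SD, n = 3) and 49.0 ± 18.3 FPKM (SD, n = 3), a ratio of 2.43. On the log2 scale KO exceeded WT by 1.20 (standard error, SE, 0.31, 95% interval 0.48 to 1.93), with an unadjusted p of 0.00536 and an adjusted p of 0.476 from limma, and the two-sided exact permutation test gave p = 0.1. Without KO 2 the log2 fold change was 1.56 (adjusted p = 0.208), and without KO 0 it was 1.07 (adjusted p = 0.728).

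*Gja5*, the other arterial connexin, differed less. It was at 18.2, 18.7, and 17.8 FPKM in WT and at 19.1, 36.4, and 23.8 FPKM in KO. The groups did not overlap, but KO 0 was just above the highest WT library and KO 1 was far above the rest. The means were 18.3 ± 0.479 and 26.5 ± 8.96 FPKM (SD, n = 3 each), a log2 fold change of 0.48 (SE 0.27, 95% interval -0.14 to 1.10, adjusted p = 0.650). The value rested on KO 1, without which it was 0.22.

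*Gjc1*, the SMC connexin 45, was at 59.9, 44.9, and 37.9 FPKM in WT and at 35.5, 36.8, and 33.6 FPKM in KO. All KO libraries were below all WT libraries, although WT 2 was only just above KO 1 and the spread was mostly among the WT libraries. The means were 47.6 ± 11.3 and 35.3 ± 1.64 FPKM (SD, n = 3 each), and the log2 fold change was -0.40 (SE 0.21, 95% interval -0.89 to 0.078, adjusted p = 0.639). Without WT 0 it was -0.23.

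*Gja1*, connexin 43, which SMCs, fibroblasts, and heart muscle all use, was at 44.3, 55.0, and 39.2 FPKM in WT and at 25.6, 46.0, and 67.7 FPKM in KO. The lowest and the highest value of the 6 were both in KO libraries. The means were 46.2 ± 8.06 and 46.4 ± 21.1 FPKM (SD, n = 3 each), and the log2 fold change was -0.087 (SE 0.35, 95% interval -0.89 to 0.72, adjusted p = 0.948). In each group the library highest in *Gja1* was the one highest in heart muscle transcripts, WT 1 and KO 2, and their part in the level of *Gja1* was not tested. Without both libraries the log2 fold change was -0.28, without KO 2 alone it was -0.41, and without KO 0 it was 0.29.

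*Gjc3*, the glial connexin 29, was at 1.51, 0.655, and 2.40 FPKM in WT and at 2.34, 2.89, and 5.65 FPKM in KO. KO 2 was the highest of all, and KO 0 was below WT 2, so the groups overlapped. The means were 1.52 ± 0.870 and 3.63 ± 1.77 FPKM (SD, n = 3 each), a log2 fold change of 1.26 (SE 0.73, 95% interval -0.44 to 2.97, adjusted p = 0.661). It was 0.80 without WT 1 and 0.43 without WT 1 and KO 2.

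*Gjb1* was listed at 0 in all 6 libraries. *Gjb2* was listed at 0 in 4 libraries, at 0.728 FPKM in WT 0, and at 0.136 FPKM in KO 2, and so neither was compared by the fit. Of the 13 other connexin genes in the table, none reached a mean of 1 FPKM. *Gja10*, *Gjb6*, and *Gjd4* were listed at 0 throughout, and the highest value of the 13 in any library was 1.74 FPKM, for *Gjd3* in WT 1 and *Gja3* in KO 2.

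Without KO 0, the library with both *Xist* and *Ddx3y*, the log2 fold changes were 1.07 for *Gja4*, 0.69 for *Gja5*, -0.41 for *Gjc1*, and 1.52 for *Gjc3*. Without WT 1 and KO 2, the pair highest in heart muscle transcripts, they were 1.65 for *Gja4*, 0.55 for *Gja5*, and -0.40 for *Gjc1*. *Gja1* was thus the abundant connexin whose sign depended on which libraries were used.

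**Figure D2:**
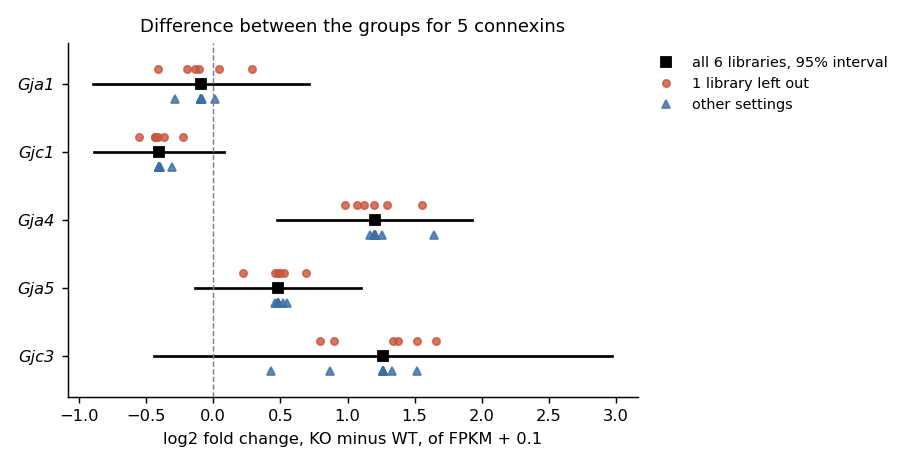
Log2 fold change, KO minus WT, of FPKM + 0.1 for 5 connexins (black squares, with the 95% interval from limma as a line), with the values when 1 library was left out (red circles) and under the other settings (blue triangles). The interval of *Gja4* lies above 0 before adjustment, from 0.48 to 1.93, the other 4 intervals cross 0, and the points of *Gja1* fall on both sides of it.

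The order of the connexins within a library was described from the share of each in the summed FPKM of all 20 connexin genes, a sum of 115.1 to 147.5 FPKM in WT and 140.8 to 190.5 FPKM in KO. In WT the 2 SMC connexins led. *Gjc1* held 40.6, 30.5, and 32.9% of the sum in WT 0, 1, and 2, and *Gja1* held 30.1, 37.3, and 34.0%, so that neither was above the other in all 3 libraries. *Gja4* followed with 13.5, 15.5, and 15.6%, and *Gja5* with 12.4, 12.7, and 15.4%. *Gja4* was above *Gja5* in every library of both groups, by only 1.01-fold in WT 2. *Gjc3* held 0.445 to 2.08%, and the 13 other connexins together 0 to 3.53%.

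In KO the order differed between libraries. *Gja4* was the most abundant connexin in KO 0 and KO 1, with 39.6 and 33.1% of the sum, whereas KO 2, at 17.3%, kept the order seen in WT 1 and WT 2, led by *Gja1* at 41.3%. The share of *Gjc1* was 25.2, 19.3, and 20.5%, below all WT libraries. The share of *Gja4* was above that of all WT libraries in all 3 KO libraries. *Gja1* held 18.2 and 24.1% in KO 0 and KO 1, below all WT libraries. *Gja5* held 13.6, 19.1, and 14.5%, which overlapped with WT.

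**Figure D3:**
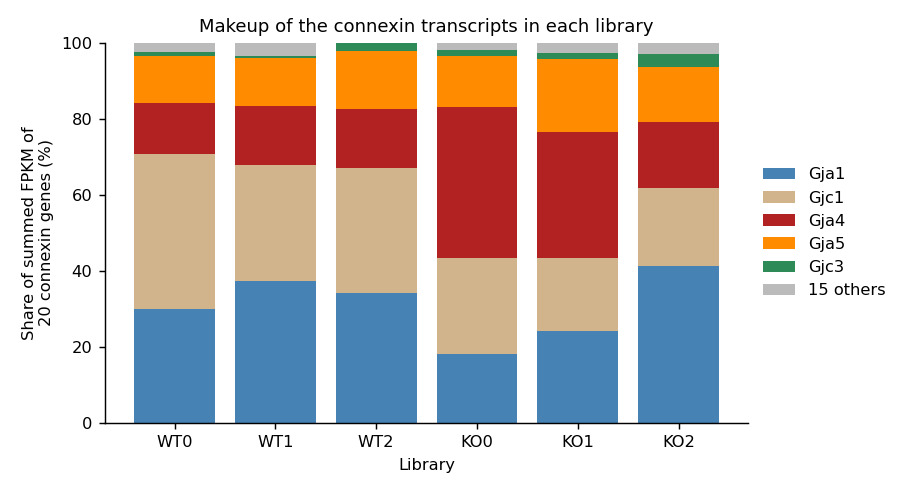
Share in percent (y axis) of each connexin in the summed FPKM of 20 connexin genes, stacked for each of the 6 libraries (x axis). *Gja4* (dark red) holds 13.5 to 15.6% in WT and 39.6, 33.1, and 17.3% in KO 0, 1, and 2, and *Gjc1* (tan) holds 30.5 to 40.6% in WT and 19.3 to 25.2% in KO.

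Ratios between connexins do not depend on the scaling of a library. The 6 ratios among *Gja1*, *Gja4*, *Gja5*, and *Gjc1* were chosen after the values were seen and are given as a description, with no test. The ratio of *Gja4* to *Gjc1* was 0.333, 0.509, and 0.474 in WT and 1.57, 1.71, and 0.846 in KO. It was thus below 1 in all WT libraries and higher in every KO library, by 1.61 on the log2 scale. The ratio of *Gja5* to *Gjc1* was 0.306, 0.418, and 0.471 in WT and 0.540, 0.990, and 0.711 in KO, with a log2 difference of 0.89. Both differences follow from the single genes, since *Gja4* and *Gja5* were higher and *Gjc1* lower in every KO library, and add no evidence to them.

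The other 4 ratios overlapped between the groups. *Gja4* over *Gja5* was 1.09, 1.22, and 1.01 in WT and 2.91, 1.73, and 1.19 in KO, a log2 difference of 0.72 that was 0.38 without KO 0. *Gja1* over *Gja4* was 2.22, 2.41, and 2.18 in WT and 0.459, 0.731, and 2.38 in KO. Here KO 0 and KO 1 were below all WT libraries and KO 2 was among them, and the log2 difference of -1.29 was -0.78 without KO 0 and -1.97 without KO 2. *Gja1* over *Gja5* differed by -0.57 on the log2 scale (-0.36 without KO 1, -0.94 without KO 2) and *Gja1* over *Gjc1* by 0.32 (-0.045 without KO 2).

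In bulk tissue, fewer cells of a type cannot be told apart from less RNA per cell, and marker lists of the cell types that use connexins were therefore read beside them. The SMC markers were lower in KO, with all 12 fold changes negative, 7 without overlap between the groups, 6 with an unadjusted p under 0.05, 0 called, and a median log2 fold change of -1.34. Of all genes tested, 7.84% were lower without overlap and 4.97% were lower at an unadjusted p under 0.05 in limma. *Tagln*, whose promoter drives the Cre, was at 1350, 762, and 684 FPKM in WT and at 676, 460, and 216 FPKM in KO. *Myh11*, the smooth muscle myosin, was at 749, 284, and 308 FPKM in WT and at 148, 157, and 65.6 FPKM in KO, and these genes were lower in every KO library. *Acta2*, smooth muscle actin, was at 2262, 1121, and 855 FPKM in WT and at 1161, 809, and 396 FPKM in KO, with overlap. Against the mean log2 level of this list, *Gjc1* was higher in KO by 0.81, with values of -1.99, -1.58, and -1.64 in WT and -1.29, -1.02, and -0.48 in KO. The groups were apart (p = 0.1 in a two-sided exact permutation test, adjusted over 7 pairs 0.525). *Gja1* differed by 1.13 in the same measure (exact permutation test, p = 0.3, adjusted 0.525), or by 0.54 without KO 2, with overlap. The mean log2 level of the list itself changed by -1.22, so any gene that fell by less comes out higher against it. Neither value therefore adds evidence to those of the single genes. The part of the SMC markers in the level of either connexin was not tested.

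The 12 endothelial markers had a median log2 fold change of 0.41, with 8 higher and 4 lower, 2 higher without overlap, and 1, *Cldn5*, the tight junction protein claudin 5, at an unadjusted p under 0.05. Among all genes tested, 8.21% were higher without overlap and 3.31% were higher at that p. The next sums are again of the 12 markers. Their summed level was 426 to 608 FPKM in WT and 520 to 790 FPKM in KO. The 6 markers of arterial endothelium had a median of -0.096, with 2 higher and 4 lower. Against the mean log2 level of the endothelial list, *Gja4* was at -0.47, -0.32, and -1.04 in WT and at 0.95, 0.45, and -0.70 in KO. KO 0 and KO 1 were above all WT libraries and KO 2 was among them. The difference was 0.84 (two-sided exact permutation test, p = 0.3, adjusted 0.525), and it was 0.48 without KO 0, 1.31 without KO 2, and 1.45 without both WT 1 and KO 2. *Gja5* against the same list differed by 0.12 (exact permutation test, p = 0.5, adjusted 0.7), a value that turned to -0.031 without WT 2. The part of endothelial content in the levels of *Gja4* and *Gja5* was not tested.

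*Gja5* is also made by atrial muscle, whose 5 markers summed to 14.1, 542, and 91.1 FPKM in WT and to 56.2, 51.0, and 733 FPKM in KO. The library highest in *Gja5*, KO 1, had the lowest atrial sum of the KO libraries, and WT 1, with the highest atrial sum of the WT libraries, had a *Gja5* level close to that of the other WT libraries. Without WT 1 and KO 2 the log2 fold change of *Gja5* was 0.55. Relative to the atrial list it differed by 0.48, with overlap of the groups (exact permutation test, p = 0.6, adjusted 0.7), and the sign of this value turned without WT 1 (-0.74) or KO 1 (-0.30). The part of atrial muscle in the level of *Gja5* was not tested.

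The markers of Schwann cells, the glia that use *Gjc3*, were higher in KO. Of 11 fixed, 10 were tested, 9 were higher, 4 without overlap and 6 with an unadjusted p under 0.05, with a median log2 fold change of 2.26, and 0 were called. Among all genes tested, 8.21% were higher without overlap and 3.31% were higher at that p. The summed level of the Schwann cell markers was 16.9 to 40.3 FPKM in WT and 50.0 to 181 FPKM in KO. *Gjc3* and this list were both highest in KO 2. The mean log2 level of the list was higher in KO by 2.34, so any gene that rose by less comes out lower against it. Against the list *Gjc3* was lower in KO by 1.08 on the log2 scale, with values of 0.90, -0.62, and 1.36 in WT and 0.015, -0.72, and -0.90 in KO that overlapped (exact permutation test, p = 0.2, adjusted 0.525). It was lower by 1.66 without WT 1 and by 0.67 without WT 2, and it was lower by 0.48 with quantile normalization. The neuron list, with 7 of 10 genes tested, had a median of 2.27, and 6 of the 7 were higher. The part of nerve content in the level of *Gjc3* was not tested. For *Gjb2*, the difference against 10 epithelial and mesothelial markers was -1.32 (exact permutation test, p = 0.7, adjusted 0.7) and rested on WT 0, without which it was 0.078, and *Gjb1* gave no value. Of the remaining lists, the median log2 fold change was -0.027 for heart muscle, 0.73 for the 3 atrial genes tested, 0.65 for epithelium and mesothelium, -0.16 for fibroblasts, 1.37 for erythroid cells, and 0.050 for leukocytes.

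**Figure D4:**
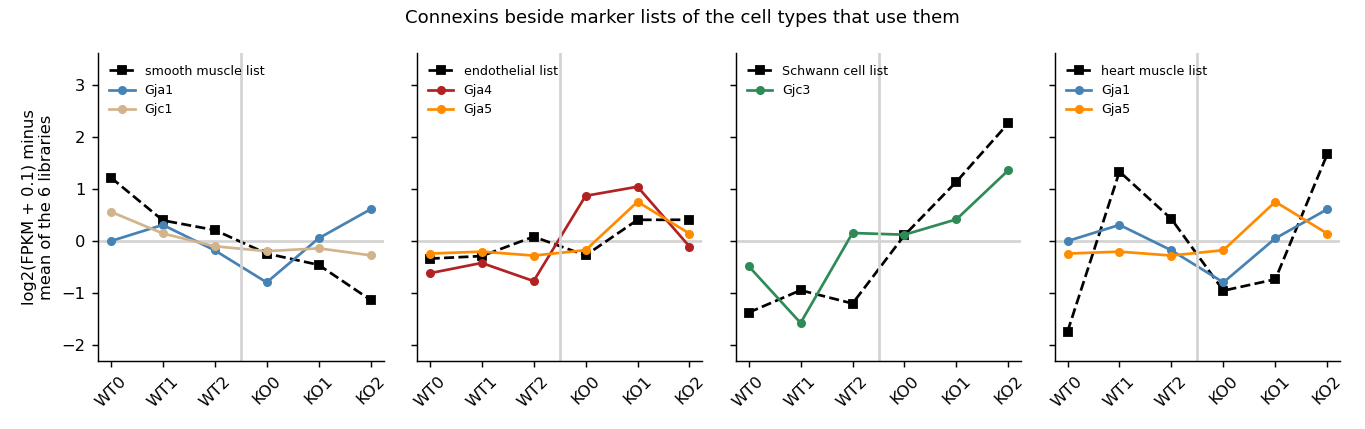
Log2(FPKM + 0.1) minus the mean of the 6 libraries (y axis) for connexins (coloured) and for the mean of a marker list (black dashes) in WT 0 to 2 and KO 0 to 2 (x axis). The smooth muscle list is lower in all KO libraries, *Gjc3* and the Schwann cell list are both highest in KO 2, and *Gja4* stands above the endothelial list in KO 0 and KO 1 but not in KO 2.

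Gap junction function also depends on proteins that bind, modify, or resemble connexins. The pannexins are channel proteins related in structure, and *Panx1*, the widely expressed one, was at 5.58, 8.32, and 1.36 FPKM in WT and at 4.49, 4.13, and 5.72 FPKM in KO, with overlap (adjusted p = 0.924). *Panx2* was listed at 0 or 0.0965 FPKM in WT and at 0.399 to 0.914 FPKM in KO, under the filter, and *Panx3* was listed at 0 throughout.

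Of 12 partners of connexins, all were tested, 8 had a positive and 4 a negative log2 fold change with a median of 0.11, 0 were called, and 2 were lower at an unadjusted p under 0.05. At that p, 4.97% of all genes tested were lower. *Nov*, which encodes CCN3, a secreted matrix protein known to bind connexin 43, was at 109, 84.3, and 109 FPKM in WT and at 36.6, 30.9, and 24.2 FPKM in KO. Every KO library was far below every WT library. *Nov* had a log2 fold change of -1.73 (SE 0.21, adjusted p = 0.17, unadjusted p = 4.62e-05), and it ranged from -1.87 to -1.57 over all alternatives. *Dbn1*, which encodes drebrin, an actin-binding protein that holds connexin 43 at the membrane, was at 73.6, 85.0, and 91.7 FPKM in WT and at 48.4, 64.6, and 57.4 FPKM in KO, a log2 fold change of -0.56 (SE 0.18, adjusted p = 0.545). The scaffold *Tjp1* (ZO-1) had a log2 fold change of 0.19 and the adherens junction gene *Cdh2* (N-cadherin) one of 0.42, both with overlap. Of 11 kinases that phosphorylate connexins, such as *Src* and *Prkca*, 0 had an unadjusted p under 0.05, 0 were free of overlap, and the median log2 fold change was 0.056.

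Of 20 regulators of connexin transcription, 16 were tested and 12 of them had a positive log2 fold change, with a median of 0.47. None was called, 2 were higher at an unadjusted p under 0.05, and 3 others were higher without overlap. Among all 12955 genes tested, 7207 had a positive value, 3.31% were higher at that p, and 8.21% were higher without overlap. *Tbx2*, a T-box repressor known to act on *Gja1* and *Gja5*, was at 1.59, 2.95, and 8.53 FPKM in WT and at 17.54, 12.4, and 6.94 FPKM in KO, a log2 fold change of 1.71 (SE 0.65, adjusted p = 0.588), and KO 2 lay below WT 2. *Sox10*, a neural crest and glial factor that is also on the Schwann cell list, was at 2.41, 1.41, and 1.82 FPKM in WT and at 1.94, 14.3, and 17.6 FPKM in KO, high in 2 KO libraries only (log2 fold change 2.05, SE 0.84, adjusted p = 0.591).

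Of the 3 regulators without overlap, *Sox17*, an arterial transcription factor, was at 2.11, 1.05, and 2.47 FPKM in WT and at 3.53, 4.03, and 4.76 FPKM in KO, with a log2 fold change of 1.16 (adjusted p = 0.624). *Sox18* was at 1.93, 6.41, and 7.43 FPKM in WT and at 7.71, 11.3, and 10.3 FPKM in KO, with a log2 fold change of 1.08 (adjusted p = 0.631) that was 0.48 without WT 0. *Notch1*, a receptor of arterial specification, was at 17.7, 14.2, and 21.2 FPKM in WT and at 21.5, 28.0, and 23.5 FPKM in KO, with a log2 fold change of 0.47 (adjusted p = 0.625). Other regulators known from endothelium overlapped between the groups, with log2 fold changes of -0.079 for *Hey1*, 0.086 for *Notch4*, and 0.47 for *Dll4*. The shear-responsive factors *Klf2* and *Klf4* had log2 fold changes of -0.0014 and -0.33 with overlapping groups.

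The genes whose profile over the 6 libraries was most like that of each connexin were found by the root mean square difference of log2(FPKM + 0.1) after centring, among the other 12954 genes tested. For *Gja4* they were *Cd24a* (0.14), *Commd7* (0.16), and *Fam213a* (0.18), where the median gene was 0.87 away. For *Gja5* they were *Dock4* (0.060), *Terf1* (0.090), and *Gtpbp2* (0.091), with a median of 0.61. For *Gjc1* they were *Cobl* (0.065), *Vkorc1* (0.069), and *Cfdp1* (0.071), with a median of 0.56. The 3 connexins were thus each matched by other genes to within a fraction of the distance of the median gene. For *Gja1* the nearest were *Ppp2r5a* (0.089), *D630045J12Rik* (0.10), and the water channel *Aqp1* (0.13), with a median of 0.65. For *Gjc3* they were *Lama3* (0.29), *Sox17* (0.31), and *Hpgd* (0.37), with a median of 1.03. These are descriptions over 6 libraries, and with so many genes compared some near profiles are found for any gene.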

How the data were processed

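RNA was taken from flash-frozen DA at E17.5 (3 WT and 3 KO libraries). The study's legend for these data gives a larger n per group than the libraries analysed here, and how animals relate to libraries is not given in the sources used here. The authors used TopHat2 to align the quality-trimmed reads to mm10. The deposited FPKM values, 1 for each gene in each library, were then made by the authors in Cufflinks and Cuffdiff. Tool versions, annotation, and strand setting are not given in the sources used here. Groups and columns were matched by the sample titles, with 0 columns left unmatched.

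From the deposited FPKM, log2(FPKM + 0.1) was computed for the 12955 genes with a mean of at least 1 FPKM, and KO was set against WT in limma 3.58.1 under R 4.3.3. The fit used lmFit and then eBayes, whose prior variance followed mean expression. Its two-sided p values were adjusted by Benjamini-Hochberg over all genes tested, with a threshold of 0.05. Cuffdiff needs aligned reads and was not repeated. Differences from marker lists were tested by exact permutation of the libraries, two-sided, in Python 3.11.15. The fit was tested on simulated data, in which 200 genes were changed. It called 0 of the 200 at a true log2 change of 1 and 81 at a change of 2. The absence of a call alone therefore does not exclude such amounts for a connexin. The limma intervals, before adjustment, are narrower for some of them. Those of *Gja1* (-0.89 to 0.72) and *Gjc1* (-0.89 to 0.078) leave out a log2 change of 1 in either direction. Those of *Gja4* (0.48 to 1.93) and *Gja5* (-0.14 to 1.10) hold a change of 1 but not of 2. That of *Gjc3* (-0.44 to 2.97) holds both.

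The genes named are the 7 members, the other connexins and pannexins, genes of the lists where a list is reported, and the 3 genes with the nearest profile to each member with a mean of at least 1 FPKM. *Xist* and *Ddx3y* are named outside this rule. The members and lists were chosen with earlier results of these data known. The settings varied were the scaling, the pseudocount, the variance model, the filter on low values, a replicate block, the median in place of the mean of the markers, and the omission of each library. The omission of both WT 1 and KO 2, the ratios, and the alternatives run on the ratios and on single pathway genes were chosen after the data were seen. Promoter sequences are from RefSeq (GRCm38.p6), in which 6 of the 7 members had an entry, and gene spans are from GENCODE in GRCm38.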

Additional observations from a re-analysis of the deposited data

How the results depend on the processing

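*Gja4*, *Gja5*, *Gjc1*, and *Gjc3* kept the sign of their log2 fold change in every alternative that gave a value (0.98 to 1.65, 0.22 to 0.69, -0.56 to -0.23, and 0.43 to 1.66), and no connexin reached an adjusted p under 0.05 in any. A filter at a mean of 5 FPKM leaves *Gjc3* out. The log2 fold change of *Gja1* turned to 0.012 with quantile normalization and, when single libraries were left out, lay between -0.41 and 0.29. The 1 gene called was *Rn45s*, the ribosomal RNA precursor, with an extreme log2 fold change of 15.19 (adjusted p = 7.47e-08 in limma). This value was 11.87 with a pseudocount of 1 and 18.52 with one of 0.01. What lies behind so large a difference in ribosomal RNA, and whether it bears on the other genes, was not tested. The 1 gene called became 2 genes with no mean-variance trend and 2 with no moderation (2 higher in each). Without WT 1 and KO 2 it became 3 (3 higher). With a library left out 1 to 3 genes were called, 1 to 3 higher and 0 to 1 lower, where limma with all libraries called 0 lower with 644 lower at an unadjusted p under 0.05. With a library left out, *Gja5* relative to endothelial markers ranged from -0.031 to 0.28, *Gja5* relative to atrial markers from -0.74 to 1.57, *Gjb2* relative to epithelial markers from -2.05 to 0.078, *Gja1* over *Gjc1* from -0.045 to 0.70, and the log2 difference of *Gjb2* from -1.11 to 0.41. With the median of the atrial markers, the *Gja5* value was -0.38. The cause of these changes was not tested.

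The replicate numbers 0, 1, and 2 are shared by the groups, and the deviations of same-numbered libraries correlated across genes by only 0.12, -0.076, and -0.0088. Such low values show no pairing but cannot exclude one. Whether same-numbered libraries share a litter or a preparation is not given in the sources used here. With the replicate block 1 gene was called, and *Gja4* kept a log2 fold change of 1.20 (adjusted p = 0.329). No other call changed with the block.

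FPKM gives no read totals, so the counting error of low genes such as *Gjc3* and *Gjb2* is unknown.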
